A study of Mus musculus with 2 samples.

Results

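The Mir29 family was described here as 4 of the 2202 microRNA genes counted in neonatal mouse cortex. Its members are Mir29a, Mir29b-1, Mir29b-2 and Mir29c, the genes that carry these symbols in GENCODE annotation M21. Each library came from the left cerebral cortex of a female B6CASTF1/J mouse aged 4 days, a first-generation hybrid with a C57BL/6 and a castaneus parent, with no treatment or altered allele named in the labels. The study holds 1 group of 2 libraries, from animals that are numbered separately but share a donor record. No other age or condition was analysed here, so there was nothing to test between groups and no change with age could be seen. Values over both libraries are means ± SD with n = 2, and the libraries were made from small RNAs of fewer than 30 bases.

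MicroRNAs are cut from a hairpin precursor whose 5p and 3p arms can each give a mature RNA, and the bases 2 to 8 of that RNA, the seed, pair with target messengers. The 3p products of the Mir29 genes share 1 seed and are known to lower collagens and other matrix proteins, the DNA methyltransferases Dnmt3a and Dnmt3b, and, in mouse neurons, pro-apoptotic BH3-only proteins. In mouse cortex the family is known to rise after birth as neurons mature, and it is also known from astrocytes.

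The mature products are shown because their likeness decides which reads could be given to which gene. They are RefSeq sequences placed on GRCm38, the assembly also called mm10, printed 5′ to 3′ with the seed in capitals.
miR-29a-3p: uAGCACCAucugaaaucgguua
miR-29c-3p: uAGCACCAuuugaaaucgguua
miR-29b-3p: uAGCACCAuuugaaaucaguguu
miR-29a-5p: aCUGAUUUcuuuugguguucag
miR-29c-5p: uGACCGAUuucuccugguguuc
miR-29b-1-5p: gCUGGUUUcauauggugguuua
miR-29b-2-5p: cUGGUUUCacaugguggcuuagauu

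The 3 different 3p products had the seed AGCACCA, which no other product among the 1738 RefSeq mature sequences carried. Counted from 1 at the 5′ end, miR-29a-3p and miR-29c-3p differed by C10U alone. From miR-29c-3p to miR-29b-3p the substitutions were G18A, U21G and A22U, so that their first 17 bases were the same. The 5p products had 4 different seeds, and the seed of miR-29b-2-5p recurred in miR-6338, whose gene Mir6338 had 0 reads in both libraries.

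The product miR-29b-3p is made from both Mir29b-1 and Mir29b-2, and no base tells its copies apart. The 2 hairpins shared a run of 25 bases, which held the whole of miR-29b-3p and the 2 bases before it. By contrast, Mir29a had no stretch of 20 bases in common with any other of the 1005 RefSeq hairpins. Of the 20-base windows of each hairpin, 9 of 52 in Mir29b-1, 6 of 62 in Mir29b-2 and 3 of 69 in Mir29c recurred in another member. The 5p products of all 4 genes, miR-29a-3p and miR-29c-3p matched a single hairpin each. Among the 968 counted genes with a RefSeq hairpin, 92 (9.50%) had a mature sequence that was also in another hairpin, and Mir29b-1 and Mir29b-2 were among them.

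**Figure D1:**
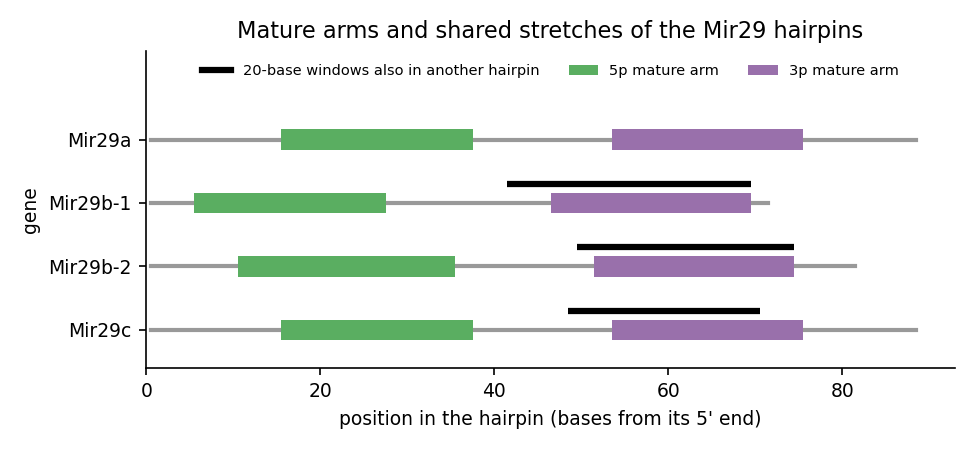
Positions of the 5p and 3p mature arms along each Mir29 hairpin, in bases from its 5′ end; black bars span the 20-base windows that also occur in another RefSeq hairpin. The bars lie over the 3p arm in Mir29b-1, Mir29b-2 and Mir29c, Mir29a has none, and no 5p arm is covered.

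The genes lie in pairs at separate loci (mm10). On the minus strand of chromosome 6, Mir29a (ENSMUSG00000065610.1) spans 31062660 to 31062747 and Mir29b-1 (ENSMUSG00000065604.2) spans 31063023 to 31063093, with 275 bases between them. Neither lies inside an annotated host gene, and Mir29b-1 overlaps the noncoding Gm27019 by 2 bases on the same strand. On the plus strand of chromosome 1, Mir29b-2 (ENSMUSG00000065412.3) spans 195037040 to 195037120 and Mir29c (ENSMUSG00000065548.1) spans 195037547 to 195037634, 426 bases apart. Both are within an exon of the noncoding host A330023F24Rik and opposite an untranslated exon of Cd46, a complement regulator. Only reads of the annotated strand were counted, which leaves out the Cd46 strand, and all 4 genes had 0 opposite-strand reads in both libraries. Reads of A330023F24Rik on the same strand were not told apart from those of Mir29b-2 and Mir29c.

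The hairpins were 88 bases long in Mir29a and Mir29c, 81 in Mir29b-2 and 71 in Mir29b-1. The most alike pair over the whole hairpin was Mir29a with Mir29c (78.0% identity), from different loci, followed by Mir29b-1 with Mir29b-2 (73.2%). The other pairs were less alike, at 60.4% and 63.2% for the neighbours on chromosomes 6 and 1 and at 58.8% for Mir29a with Mir29b-2 and 55.9% for Mir29b-1 with Mir29c, from different loci. Predicted folding energies were between -26.3 kcal/mol for Mir29b-1 and -34.8 kcal/mol for Mir29c, and per base all 4 (-0.370 to -0.395) were weaker than the median of all RefSeq hairpins (-0.406).

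Depth set the precision of the counts. In replicate 1, 3555469 reads fell on the annotated strand of microRNA genes, and in replicate 2, 2761003, and levels are given as reads per 1000000 of these (CPM), so that 1 CPM stood for 3.56 and 2.76 reads. A count of 0 would have allowed up to 0.844 and 1.09 CPM. Intervals cover counting error only and treat reads as independent. Amplified reads are not independent molecules, so these intervals can be too narrow. Of the brain markers in the fixed list, 7 of 11 were detected, led by Mir139 at 23650 ± 6626 CPM. The other 4 were Mir9-2 and the Mir124a genes, whose mature sequences are made at several loci, so that their low counts do not measure the level of miR-9 or miR-124. Detected Mir9-1, Mir9-3, Mir128-1, Mir128-2, Mir219a-1 and Mir219a-2 share this limit, as each has a mature sequence also in another hairpin. Of 5 striated muscle markers Mir206 alone had reads (35.2 and 14.1 CPM). The other 4 are copies of Mir1a and Mir133a, for which the same limit holds, and their 0 reads say nothing about muscle RNA. The liver marker Mir122 stood at 70.9 ± 10.8 CPM.

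All 4 members reached 2 CPM in each library, which is called detected here, as did 20.4% of all 2202 genes. Together they had 1610 reads in replicate 1, or 0.0453% of microRNA counts (95% Wilson interval 0.0431 to 0.0475). In replicate 2 they had 936 reads, or 0.0339% (0.0318 to 0.0361). The family thus held 0.0396% ± 0.00805 of microRNA counts, and its median member stood at 76.3 CPM beside 89.2 CPM for all 450 detected genes. Between the libraries the summed family had a log2 ratio of -0.43, replicate 2 over replicate 1 (counting interval -0.55 to -0.32).

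Mir29a was the most abundant member. It had 973 reads in replicate 1 (274 CPM, Wilson interval 257 to 291) and 508 in replicate 2 (184 CPM, 169 to 201), a mean of 229 ± 63.4 CPM. Mir29c, its closest relative in sequence, had 544 reads (153 CPM, 141 to 166) and 307 reads (111 CPM, 99.4 to 124), a mean of 132 ± 29.6 CPM. Both were higher in replicate 1, and the lower value of Mir29a was above the higher value of Mir29c.

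The b genes were lower than both. Mir29b-2 had 48 reads in replicate 1 (13.5 CPM, 10.2 to 17.9) and 76 in replicate 2 (27.5 CPM, 21.99 to 34.4), a mean of 20.5 ± 9.92 CPM. Mir29b-1 had 45 reads in each library, which came to 12.7 CPM (9.46 to 16.9) and 16.3 CPM (12.2 to 21.8) and a mean of 14.5 ± 2.58 CPM. Their ranges overlapped each other but not those of Mir29a and Mir29c. These values are uncertain as levels of miR-29b, because a read that ends within the 25 shared bases fits both loci equally, and the tables keep reads mapped to several places in a total outside every gene.

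By mean CPM the order was Mir29a, Mir29c, Mir29b-2 and Mir29b-1, at ranks 176, 210, 294 and 314 among the 450 detected genes. A CPM here is a share of reads and was not divided by length, since a read covers a whole small RNA. Per 100 bases of hairpin the order was the same, with 260 CPM for Mir29a, 150 for Mir29c, 25.3 for Mir29b-2 and 20.4 for Mir29b-1. With 2 libraries the order is given with its spread and without a test, and only the b genes, next to each other in it, had ranges that overlapped.

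**Figure D2:**
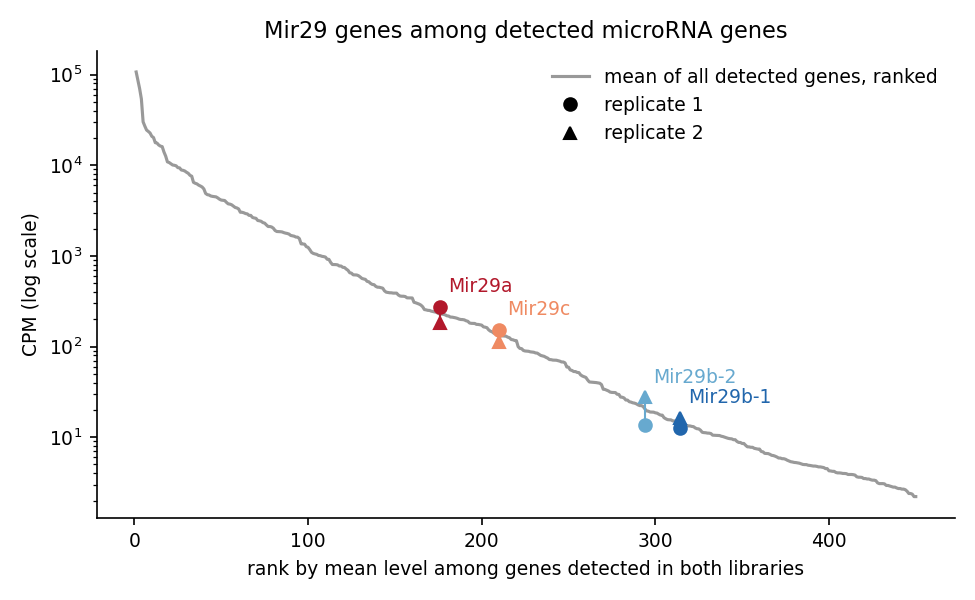
Level of each Mir29 gene in both libraries (CPM, log axis) at its rank among the genes detected in both libraries, with the ranked means of all detected genes as a grey line. Mir29a and Mir29c lie near the middle of the ranking at 229 and 132 CPM, and the b genes lie lower at 20.5 and 14.5 CPM.

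Ratios within a library do not depend on scaling between libraries. The log2 ratio of Mir29a over Mir29c was 0.84 in replicate 1 (exact counting interval 0.69 to 0.99) and 0.73 in replicate 2 (0.52 to 0.94), a mean of 0.78 ± 0.08. This ratio across the 2 loci was nearly the same in both animals, at 1.79-fold and 1.65-fold.

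Ratios within a locus, each of a member over a b gene, varied more. Mir29a over Mir29b-1 had a log2 ratio of 4.42 (4.00 to 4.90) in replicate 1 and 3.48 (3.06 to 3.97) in replicate 2. Mir29c over Mir29b-2 had 3.49 (3.08 to 3.96) and 2.01 (1.65 to 2.40). The intervals of the 2 libraries did not overlap in either locus, and both ratios were lower in replicate 2, by 1.91-fold and 2.79-fold. The ratio of Mir29b-2 over Mir29b-1 was 0.09 (-0.52 to 0.71) in replicate 1 and 0.75 (0.21 to 1.32) in replicate 2, so that the b genes were not separable in the first library. This ratio is across the 2 loci and differed by 1.58-fold, with overlapping intervals. As point values, every ratio with a b gene differed more than Mir29a over Mir29c, within a locus or across loci. These ratios reuse the same b counts of 45 to 76 reads, which leave out reads mapped to several places.

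As shares of the family's own reads, Mir29a held 60.4% in replicate 1 and 54.3% in replicate 2, and Mir29c 33.8% and 32.8%. The b genes together held 5.78% and 12.9%. The chromosome 6 locus gave 63.2% (Wilson interval 60.8 to 65.6) and 59.1% (55.9 to 62.2) of the family's reads, a mean of 61.2% ± 2.93.

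The members moved in different directions between the animals. With library sizes adjusted by TMM, the trimmed mean of log ratios over genes, the log2 ratio of replicate 2 over replicate 1 was -0.59 for Mir29a (counting interval -0.75 to -0.43) and -0.48 for Mir29c (-0.68 to -0.27). It was 1.00 for Mir29b-2 (0.47 to 1.56) and 0.35 for Mir29b-1 (-0.28 to 0.98), the latter spanning 0. Past 1.5-fold, 1 member was higher in replicate 1 and 1 in replicate 2, beside 20.4% and 14.0% of the 450 detected genes. Mir29a stood at that limit, with 1.505-fold under TMM and 1.487-fold under plain library size, which is no longer past it.

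Spread of this size was common at these levels. Of the 79 other detected genes within 2-fold of the mean of Mir29a, 26 had a larger log2 ratio in either direction, as had 29 of 80 around Mir29c. Around Mir29b-2 it was 18 of 74 and around Mir29b-1 46 of 79.

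**Figure D3:**
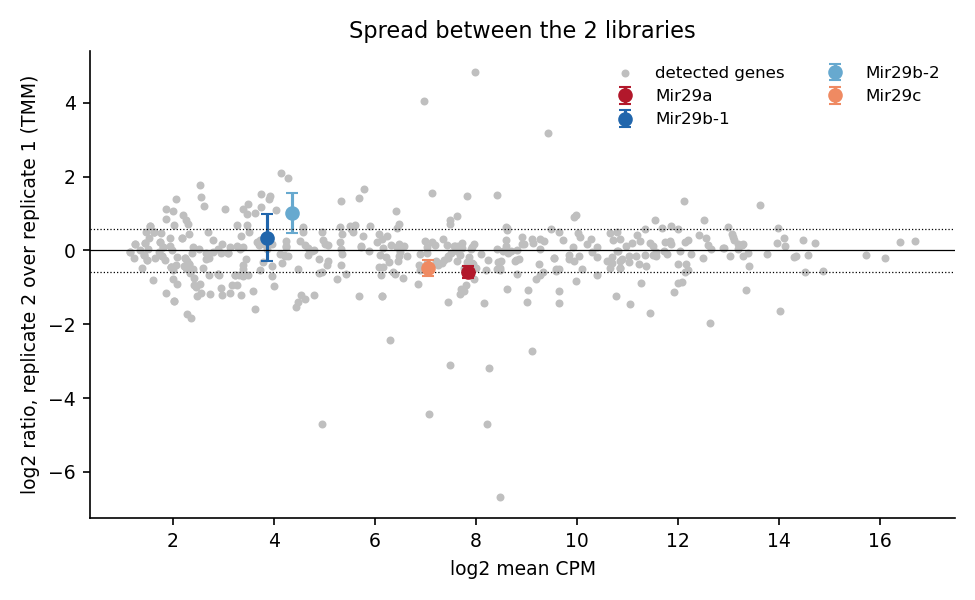
Log2 ratio of replicate 2 over replicate 1 (TMM) against log2 mean CPM for all genes detected in both libraries (grey) and the Mir29 genes (coloured, with 95% exact counting intervals); dotted lines mark 1.5-fold. Mir29a and Mir29c lie below 0 at -0.59 and -0.48, Mir29b-2 lies above at 1.00, and the interval of Mir29b-1 spans 0.

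Markers of other cells also differed between the libraries. Higher in replicate 1 as summed shares, like Mir29a and Mir29c, were the brain list (8.46% of counts against 6.26%), oligodendrocyte markers (0.0913% against 0.0613%), choroid plexus and cilia markers (0.522% against 0.279%) and epithelial markers (0.193% against 0.00938%). All 5 epithelial and all 4 choroid plexus and cilia markers were higher there, as were 8 of 11 brain markers. Detected genes of these lists had median log2 ratios of -4.70, -1.04 and -0.46, replicate 2 over replicate 1, beside -0.08 for all 450 detected genes. As that last median is below 0, most detected genes were also higher in replicate 1. The brain count includes Mir9-2 and Mir124a-3, which were not detected. Most of the brain difference in sum lay in Mir139 (28335 CPM against 18964), Mir128-1 (14073 against 6719) and Mir128-2 (5607 against 3127). The Mir128 genes have a mature sequence also in another hairpin. The oligodendrocyte sum was mostly Mir338 (735 CPM against 439), and Mir219a-1 went the other way, with 45.8 CPM in replicate 1 and 73.2 in replicate 2. Higher in replicate 2 as summed shares, like Mir29b-2, were endothelial and mural markers (2.38% against 1.63%) and red cell markers (0.0550% against 0.00602%). Most of these differences in sum lay in Mir126a (19723 CPM against 12842) and Mir451a (491 against 16.9), and 1 of 3 genes in each list was lower in replicate 2, namely Mir145a (97.8 against 139.8 CPM) and Mir486 (30.4 against 36.8). Marker genes named here beyond the highest and lowest of a list were chosen after their values were seen. Microglia and leukocyte markers stood at 0.110% in replicate 1 and 0.119% in replicate 2. In these 7 lists 29 of 34 markers were detected and none was at 0 in both libraries. Their part in the Mir29 ratios was not tested, and in bulk tissue fewer cells of a type and less RNA per cell cannot be told apart.

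The paired layout of the family, with 1 mature sequence made at both loci, recurs in the Mir23, Mir27 and Mir24 clusters, where miR-24-3p has copies in Mir24-1 and Mir24-2. It also recurs in the Mir15 and Mir16 clusters, where miR-16-5p comes from Mir16-1 and Mir16-2. In all 6 clusters the gene with a copy had fewer counts than each of its neighbours, in both libraries. Reads mapped to several places are in no gene count, so a copied gene can lack reads of its shared product. The counts and shares given here therefore do not measure the output of copied genes. These clusters were chosen with earlier results of these data known, and other clusters with a copied gene were not compared. The count therefore describes these 6 clusters and gives no rule for copied genes. The copied gene's share of the cluster's counts was 6.28% ± 2.63 for Mir29b-1 and 14.0% ± 8.30 for Mir29b-2. For Mir24-2 it was 0.707% ± 0.361 and for Mir24-1 0.277% ± 0.150. For Mir16-1 it was 41.4% ± 10.2 and for Mir16-2 10.4% ± 5.15, so that Mir29b-1 and Mir29b-2 lay between the Mir24 copies and Mir16-1.

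From replicate 1 to replicate 2 the share of the copied gene differed in both directions. It went from 4.42% (Wilson interval 3.32 to 5.86) to 8.14% (6.14 to 10.7) for Mir29b-1 and from 8.11% (6.17 to 10.6) to 19.8% (16.2 to 24.1) for Mir29b-2. The Mir16 copies had larger shares in replicate 2 as well, with 48.6% against 34.2% for Mir16-1 and 14.1% against 6.81% for Mir16-2. The Mir24 copies had smaller ones, with 0.451% against 0.962% for Mir24-2 and 0.170% against 0.383% for Mir24-1. These differences between 2 animals were not tested, and the shares leave out reads mapped to several places.

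**Figure D4:**
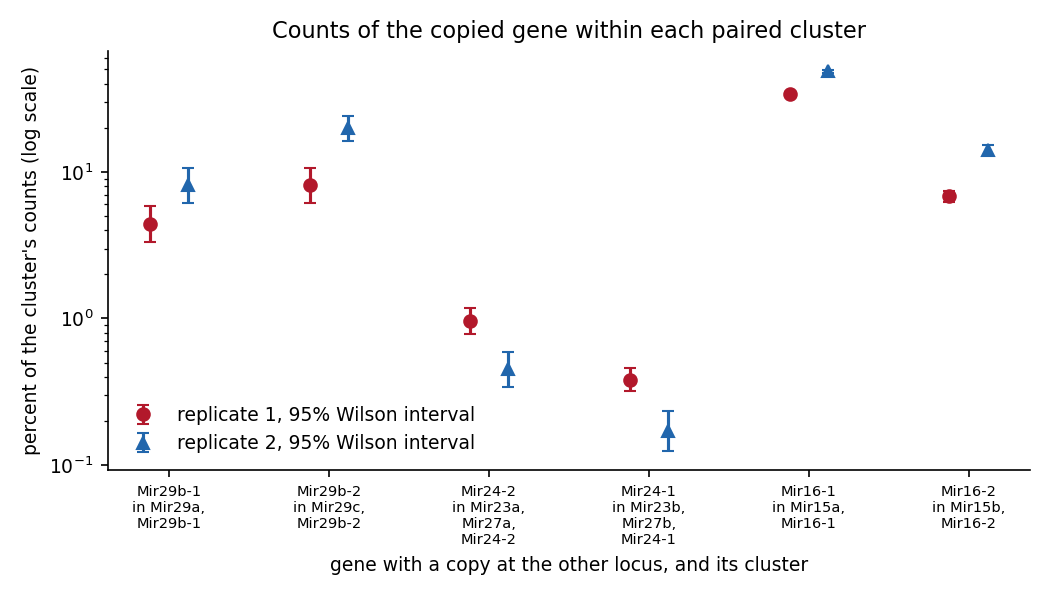
Share of each cluster's counts held by the gene whose mature sequence is also made at the other locus (percent, log axis), in both libraries with 95% Wilson intervals. Mir29b-1 and Mir29b-2 lie at 4.42% to 19.8%, above both Mir24 copies and below Mir16-1, and are higher in replicate 2. The counts leave out reads mapped to several places.

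Each member was below the median of the detected genes in both lists of cortical development given here. Those medians leave out genes that were not detected, and counts of the b genes leave out reads mapped to several places. Of 13 genes listed as rising with postnatal maturation, 10 were detected, with a median of 1992 CPM, and 7 were above Mir29a. That list was led by Mir137, a regulator of neuronal maturation, at 14035 ± 512 CPM. Of 15 genes listed for proliferating and early cells, 11 were detected, with a median of 1858 CPM, and 8 were above Mir29a. Mir17, of the cluster known to promote proliferation, led these at 8800 ± 1680 CPM. Over all genes, 175 were above Mir29a, which ranked 176 among the 450 detected genes. Mir29a and Mir29c stood above the median of all detected genes (89.2 CPM), and the b genes stood below it.

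The genes closest in level over the 2 libraries, by distance in log2(CPM + 1), were Mir376b, Mir30b and Mir496a for Mir29a, at distances of 0.11 to 0.20. For Mir29c they were Mir193b, Mir503 and Mir145a, at 0.08 to 0.22. For Mir29b-1 they were Mir491, Mir3076 and Mir7066 (0.08 to 0.13), and for Mir29b-2 Mir224, Mir344g and Mir6240 (0.44 to 0.51). With 2 libraries this likeness is one of level and describes these libraries only.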

How the data were processed

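Small RNAs of fewer than 30 bases from 2 libraries of 1 group were analysed. The authors deposited raw counts of reads for every microRNA gene, with the replicates in separate tables. Build mm10 and annotation M21 are named in the deposited notes. Alignment, counting and filtering tools are not given in the sources used here. The tables have no column names, and the second value column was read as the annotated strand from its layout. Counts cover whole hairpins, so the arms cannot be separated. Totals that name no gene stayed out of library sizes. The effect of castaneus variants on mapping was not tested.

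All 2202 IDs matched M21. CPM, ratios and intervals were computed in Python 3.11.15 with scipy 1.17.1, and TMM and RLE factors with edgeR 4.0.16. For ratios 0.5 was added to each count, and their intervals are 95% exact (Clopper-Pearson). The ratio method was checked on simulated counts. Hairpins were folded with RNAfold 2.7.2 and aligned with Biopython 1.88. Shared windows were searched in RefSeq hairpins only, mature arms in RefSeq hairpins and M21 transcripts, and a genome search was not run. The named genes were the members, the paired clusters, the highest or lowest gene of each list and the 3 genes closest in level to each member. Mir6338, named for its seed, and some marker genes fall outside this rule. The members and lists were chosen with earlier results of these data known.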

Additional observations from a re-analysis of the deposited data

Results flagged for a closer look

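A total outside the gene counts was large. The deposited tables set aside 45.8% of all reads of replicate 1 and 41.0% of replicate 2 because they mapped to more than 1 place. For each read counted on a Mir29 gene there were 3324 and 4349 such reads. How many of them were miR-29b-3p was not analysed here.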

How the results depend on the processing

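Of 99 alternatives tried on 20 results, none changed a sign. In 79 the value stayed within the spread between libraries, its counting interval or, for the number of members detected, 1.5-fold. Part of this was fixed in advance. Shares, levels, counts and percentiles cannot change sign, and a mean of 2 libraries stays within their spread when either is left out. Without opposite-strand reads of the members, the either-strand column also left shares and ratios within the family unchanged. With all reads as the denominator the family held 0.0116%, and Mir29a, Mir29c, Mir29b-2 and Mir29b-1 stood at 67.2, 38.7, 5.88 and 4.19 per 1000000 reads, in the same order. At 20 CPM or more in both libraries 2 members were detected in place of 4, and at 10 CPM or fewer all 4. Percentiles of single members among detected genes moved in 14 of 16 alternatives, since each changes the genes or the library ranked. Mir29a was past 1.5-fold higher in replicate 1 under TMM (1.505), with 1 in place of 0.5 added, and in the either-strand column, and just short of that fold with RLE factors (1.496) and with plain library size (1.487). Depth limits the b genes, whose 45 to 76 reads leave wide intervals.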
